A study of Arabidopsis thaliana with 19 samples.

Results

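Tetraploid seedlings of Arabidopsis thaliana, a crucifer widely used as a plant model, were compared with diploid seedlings, as the 5 samples titled 4x against the 4 titled 2x, 9 of the 19 seedlings of the series. Diploids carry 2 copies of the genome and tetraploids 4, and in this autopolyploid series all copies come from 1 species. The other 10 seedlings were triploids, 5 with a maternal excess of genomes (3xm) and 5 with a paternal excess (3xp), and they entered the fit only to share its estimate of the spread. All seedlings of both groups were 2 weeks old and grew in a growth chamber on 1x Murashige and Skoog medium, with no treatment named. The strain, and how the tetraploids were made, were not given in the sources used here. Each sample was the RNA of 1 whole seedling on 1 Affymetrix ATH1 array, so n counts seedlings. A p-value and an SE measure the spread between single plants pooled over all 4 groups, triploids included. Of 22810 probe sets, 64 were controls and 22746 were compared. Of these, 13513 carried 1 gene name in the annotation used here, 503 carried several, and 8730 were not listed and are called by their identifiers.

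Values are log2 expression levels, and a difference is the tetraploid mean minus the diploid mean on that scale, given ± its SE from limma, a linear model with a moderated spread. A probe set passed the test at an adjusted p under 0.05 over all probe sets. Groups did not overlap where every seedling of one group stood above every seedling of the other. Array medians lay between 5.80 and 5.89 and all arrays had been brought to 1 distribution, so a difference is relative to the other transcripts and is no amount per cell or per genome copy. In whole seedlings, fewer cells of a type and less RNA per cell cannot be told apart.

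Plants acquire iron by acidifying the soil around the root, reducing iron at the root surface and importing it, and Arabidopsis also secretes coumarins, phenolic compounds that mobilise iron. A cascade of basic helix-loop-helix factors turns this response on, and RING-domain ligases related to BRUTUS limit it. Flavonols and anthocyanins are made from phenylalanine and are stored with sugars attached, by glycosyltransferases of the same large family that attaches glucose to the hormone auxin and thereby inactivates it. Growing cells loosen their walls with expansins and with enzymes that cut and rejoin xyloglucan. When carbon runs short, the kinase SnRK1 and partner bZIP factors switch on dark-induced genes, the breakdown of amino acids and autophagy, in which ATG8 proteins coat the membranes that enclose cell contents.

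Most probe sets placed the seedlings of both ploidies in the same range. The root mean square difference over all probe sets was 0.277 in the median of the 10 pairs of tetraploids (0.266 to 0.333), 0.338 in the 6 pairs of diploids (0.231 to 0.405) and 0.348 in the 20 pairs of 1 diploid and 1 tetraploid (0.295 to 0.469). In the median the tetraploids lay closer to each other than the diploids did, and pairs of diploids differed about as much as pairs that crossed ploidy. No test was made of these distances, since pairs share seedlings. Seedling 2x 1 stood apart, at 0.333 to 0.405 from the other diploids and at 0.421 from its nearest tetraploid. For 8 of the 9 seedlings the nearest neighbour had the same ploidy. The exception was seedling 2x 3, whose nearest neighbour was 4x 3 at 0.295, against 0.316 for its nearest diploid, 2x 4. Both carry the replicate number 3, and a shared effect of that number was not tested.

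**Figure D1:**
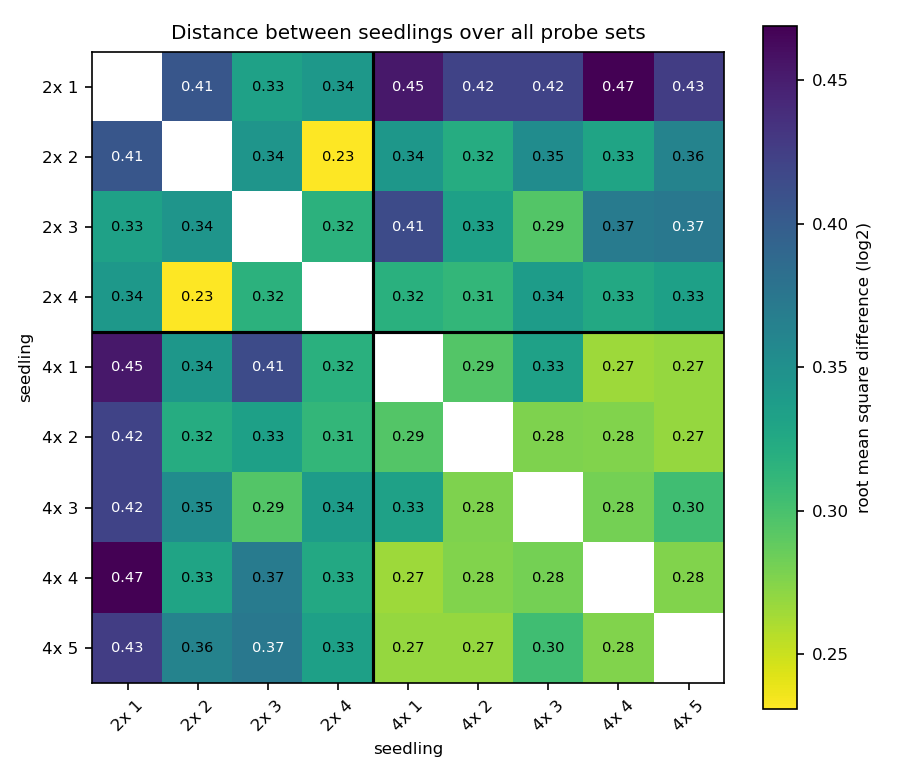
Root mean square difference on the log2 scale between each pair of the 9 seedlings over all 22746 probe sets, with black lines dividing the 4 diploids (2x) from the 5 tetraploids (4x). The 10 pairs of tetraploids all lie at 0.333 or below, and the row of seedling 2x 1 holds the highest value, 0.469.

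Against that spread, 218 probe sets passed (0.958% of those tested), 128 higher in the tetraploids (0.563%) and 90 lower (0.396%). At an unadjusted p under 0.05 there were 2925. The probe sets that were higher had a median difference of 0.966 and 60 of them differed by at least 1. The median of those that were lower was −0.529, and 11 differed by at least 1. Over all probe sets the median difference was −0.00325, and 49.2% of differences were positive. Leaving out a diploid brought the number that passed to 77 (2x 1), 172 (2x 2), 166 (2x 3) or 135 (2x 4). Leaving out a tetraploid brought it to 138 (4x 1), 163 (4x 2), 200 (4x 3), 131 (4x 4) or 125 (4x 5). It reached 382 when 3xm 4 was left out, 451 when the model held no triploids and 1017 with array weights, under which 466 were higher and 551 lower.

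Non-overlap was far more frequent than a pass of the test. The groups did not overlap for 1647 probe sets (7.24%), 752 with the tetraploids above (3.31%) and 895 with the tetraploids below (3.93%). Of the 218 that passed, 213 were among them, with a median gap of 0.285 between the nearest seedlings of the groups. The other 1434 had a median difference in size of 0.333 and a median gap of 0.0563. With a seedling fewer, more probe sets can be free of overlap, and the number rose to 2642 without 2x 2 and to 2729 without 2x 3. Of the 9 omissions these 2 raised the number most. Omitting a diploid leaves other group sizes than omitting a tetraploid, so those numbers are not directly comparable.

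Each seedling was also placed by probe sets that it had no part in choosing. For this, the fit was repeated without the seedling, and its own values were set beside the means of both groups at the probe sets that then passed. Seedling 2x 1 was nearer the diploid mean at all 77 of its probe sets (100%), and its median position was 1.21 on a scale from 0 at the mean of the other group to 1 at the mean of its own. The shares were lower for the other diploids, at 130 of 166 (78.3%) for 2x 3, 138 of 172 (80.2%) for 2x 2 and 117 of 135 (86.7%) for 2x 4. Among the tetraploids 4x 3 had the lowest share, 162 of 200 (81%), with a median position of 0.73. The shares of 4x 1, 4x 2, 4x 4 and 4x 5 lay between 90.8% and 93.9%. Seedling 4x 3 was also the tetraploid closest to the diploids at 80 of the 218 probe sets, against 23 for 4x 1.

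**Figure D2:**
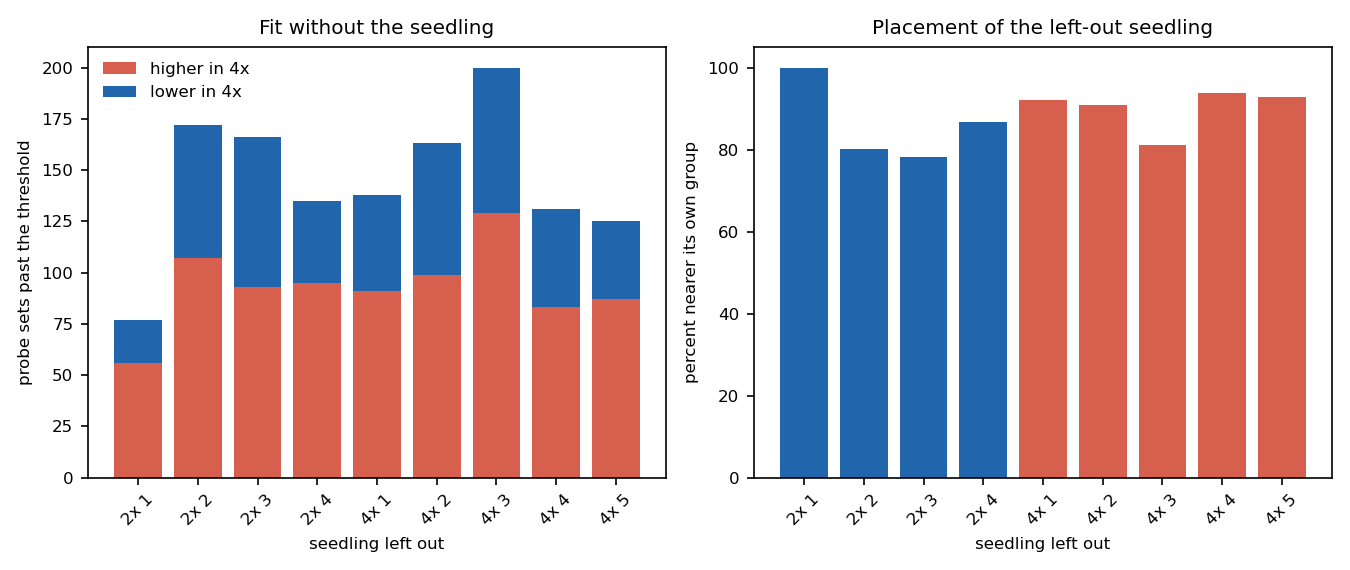
Left, the number of probe sets past the threshold when the seedling on the horizontal axis is left out of the fit, split into those higher and lower in the tetraploids. Right, the percentage of those probe sets at which the left-out seedling lies nearer the mean of its own ploidy, from 78.3% for 2x 3 to 100% for 2x 1.

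The genes of the functions followed here were read through lists of loci and through families that share a symbol. Of 333 listed loci, 56 were named by the annotation used here, and the others were not analysed here. This leaves out most of the best-known genes of each function, and counts below refer to measured members only. With the families, 180 members were measured. For comparison, 66 of all 13513 single-gene probe sets were higher and 41 lower, and their median difference was 0.00226. Over all probe sets 0.958% passed and 7.24% were free of overlap, and a member count near those shares is no result about the list. Members and lists were chosen with earlier results of these data known, so all list counts and medians below are a description only.

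**Figure D3:**
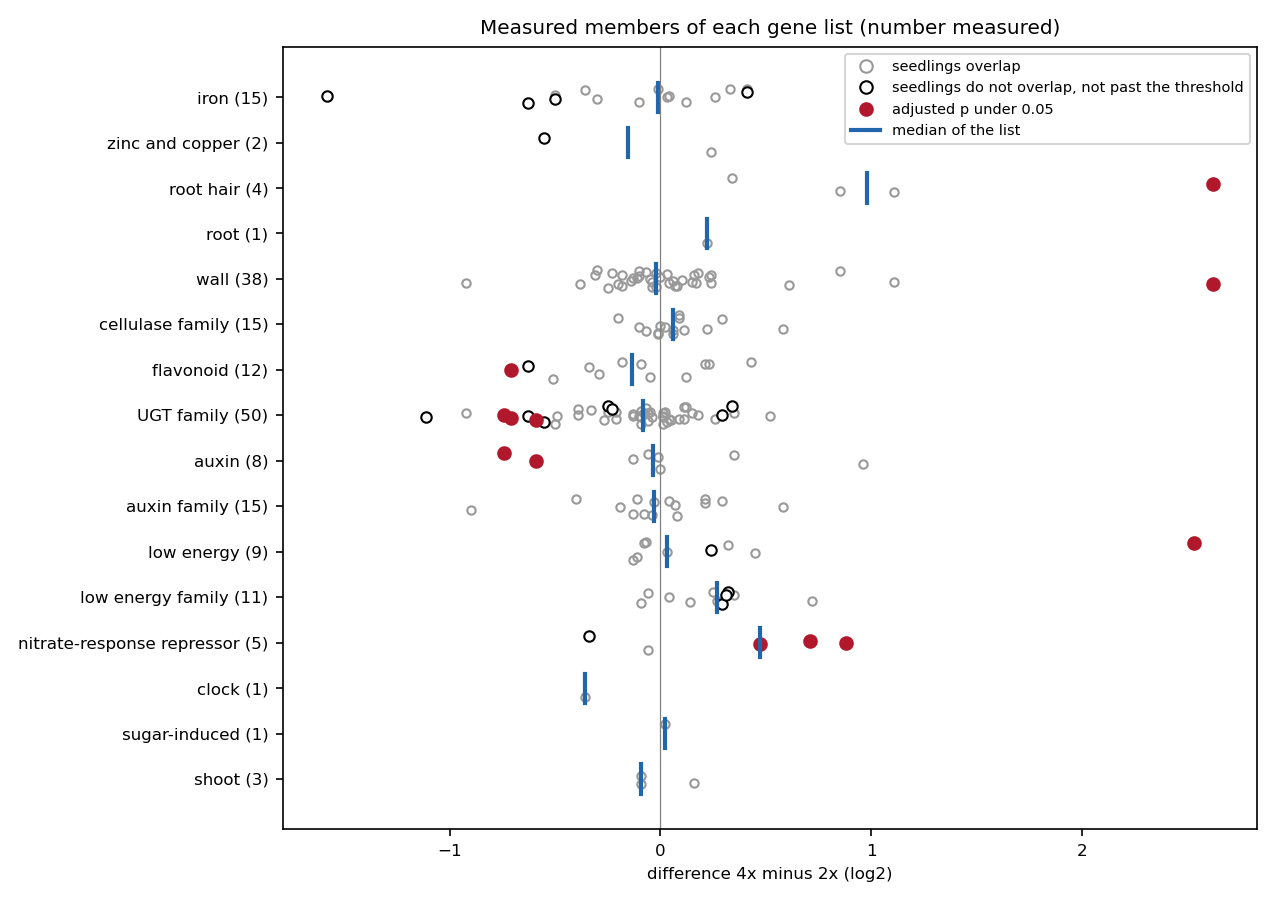
Difference 4x minus 2x on the log2 scale for each measured member of each list (number measured in parentheses). Filled red points passed the test, black circles did not pass but come from groups whose seedlings do not overlap, grey circles overlap, and the blue bar is the median of the list, which lies at 0.98 for the 4 root hair genes and at −0.0139 for the 15 iron genes.

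None of the 15 measured iron genes passed (0 higher and 0 lower), out of 63 listed. Their median difference was −0.0139, beside 0.00226 over all single-gene probe sets. The import machinery itself was not analysed here, since 0 of its 13 loci, 0 of 20 for chelation and transport and 0 of 4 for storage were named by the annotation. The measured members were 10 of 19 regulators and 5 of 7 coumarin genes. In 4 of the 15 the groups did not overlap, with the tetraploids above for 1 and below for 3, where 7.24% of all probe sets were free of overlap.

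PYE, a basic helix-loop-helix regulator of the iron deficiency response, was the member with the tetraploids above. Its levels were 7.45, 7.86, 7.63 and 7.60 in the diploids and 8.10, 7.95, 8.09, 7.92 and 8.18 in the tetraploids. The nearest seedlings, 2x 2 and 4x 4, were 0.0557 apart, and the difference of 0.41 ± 0.285 did not pass (limma, adjusted p = 0.606). The SD of PYE was 0.169 in the diploids and 0.11 in the tetraploids but 0.836 in 3xm, which enters the SE. BHLH101, an iron-responsive factor of the same class, and AT1G47400, listed as IMA1 for a peptide that promotes iron uptake, were looked up after their values had been seen. Their differences were 0.41 ± 0.654 and 0.33 ± 0.444, with overlapping seedlings. In 3xm their SDs were 1.76 and 1.35, against 0.172 and 0.264 in the diploids and 0.302 and 0.146 in the tetraploids. The SEs of these genes thus owe much to the triploids. None of these genes passed under any alternative setting, however, the fit with only the 2 groups included. The factors that act further up the cascade stood near 0, with −0.01 for ILR3, 0.04 for bHLH104, 0.03 for bHLH115 and 0.12 for bHLH121. Of these, ILR3, bHLH104 and bHLH115 were also looked up after their values had been seen. For bHLH34 the difference was −0.36 ± 0.11 (adjusted p = 0.136).

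The BRUTUS-like ligases were on the other side. AT1G74770, listed as BTSL1, stood at 8.15, 7.17, 7.76 and 7.10 in the diploids and at 6.97, 6.74, 7.09, 6.80 and 6.94 in the tetraploids. All tetraploids were below all diploids, but by only 0.01 between 2x 4 and 4x 3, and the difference was −0.63 ± 0.462 (adjusted p = 0.631). A second, dimmer probe set of the gene overlapped between groups, with a difference of −0.31. AT1G18910, listed as BTSL2, gave −0.50 ± 0.208 (adjusted p = 0.299) without overlap, the diploids standing at 6.24 to 7.02 and the tetraploids at 5.83 to 6.20. Without seedling 2x 1, the highest diploid for both genes, the differences were −0.43 and −0.34.

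Among the coumarin genes the widest difference was that of AT3G12900, listed as S8H, the enzyme that turns scopoletin into the iron-mobilising fraxetin. Its levels were 7.25, 4.18, 5.10 and 5.53 in the diploids and 3.65, 3.95, 4.0, 4.10 and 3.96 in the tetraploids. The diploids spread widely while the tetraploids lay together, and every tetraploid was below every diploid. The tetraploid mean, 3.93, lay below the cut of 4.07 used for dim probe sets, so their small spread and the fold rest on low values. The difference was −1.58 ± 0.447, a mean 3-fold lower level, and did not pass (limma, adjusted p = 0.101). Without 2x 1 it was −1.0 (adjusted p = 0.331), and over the 19 omissions of 1 seedling the adjusted p ranged from 0.029 to 0.331, passing without 2x 2 and without 3xm 4, and it passed with array weights. F6'H1, which makes the precursor of scopoletin, showed the same high value in 2x 1, 10.01, against 8.12 to 8.95 in the other diploids and 8.02 to 8.88 in the tetraploids. Its difference was −0.50 ± 0.413, and −0.14 without 2x 1. AT1G28680, listed as COSY, an enzyme that closes the coumarin ring, gave −0.30 ± 0.125 (adjusted p = 0.31). Over the 5 coumarin genes 4 differences were negative, with a median of −0.298, and of −0.135 without 2x 1.

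**Figure D4:**
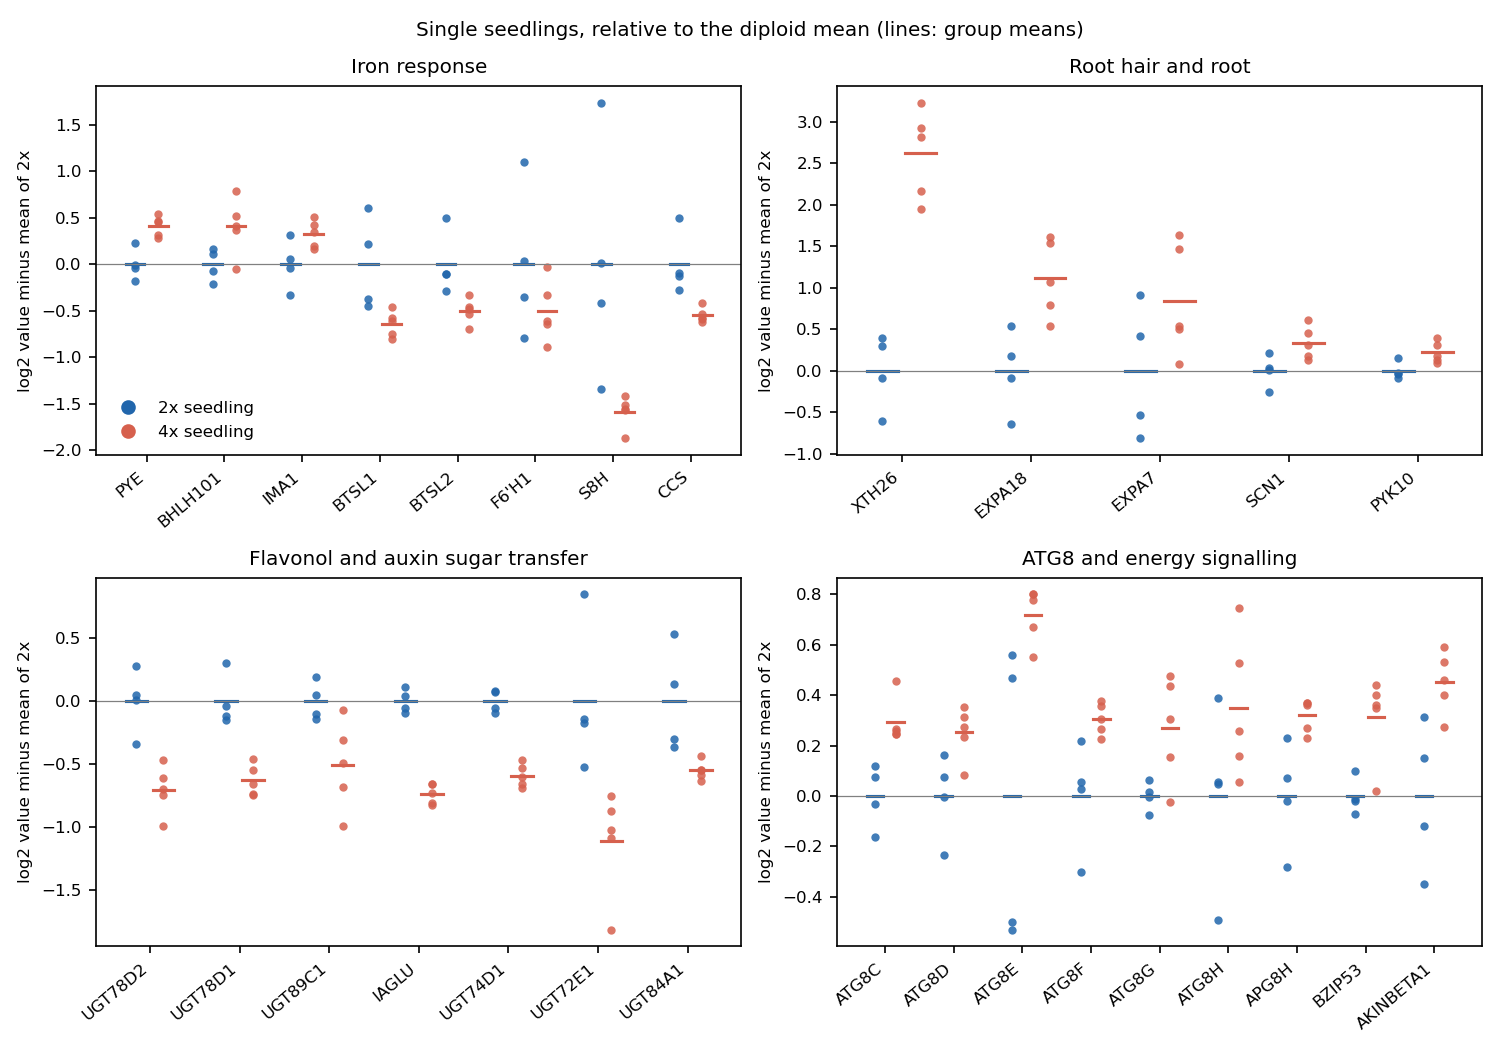
Log2 values of single seedlings minus the diploid mean of the gene, for members of 4 functions, with diploids in blue, tetraploids in red and short lines at the group means. XTH26 and IAGLU separate the groups by 1.56 and 0.56, the tetraploids of BTSL1 and PYE stand just beyond the nearest diploid, and the 4 diploids of S8H spread widely.

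Copper and zinc genes were represented by 1 member each. CCS, the copper chaperone of superoxide dismutase, stood at 8.80, 8.18, 8.03 and 8.21 in the diploids and at 7.73, 7.89, 7.77, 7.72 and 7.68 in the tetraploids. The groups were 0.14 apart, and the difference of −0.55 ± 0.21 did not pass (adjusted p = 0.256, and −0.38 without 2x 1). ZIP9, a zinc transporter, gave 0.24 ± 0.144 with overlapping seedlings.

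Roots were present in the samples of both groups. PYK10, a beta-glucosidase that makes up much of the protein of root endoplasmic reticulum bodies, had a level of 12.36 ± 0.101 (SD, n = 4) in the diploids and 12.58 ± 0.124 (SD, n = 5) in the tetraploids, near the top of the arrays' range. Its difference was 0.22 ± 0.0889 and did not pass (limma, adjusted p = 0.273). PYK10 was the only measured member of 38 listed root loci. Shoot genes had 3 measured members of 23, the stomatal lineage factors FAMA and SPCH with a difference of −0.09 each and the dim shoot meristem signal CLV3 with 0.16. None of the 8 listed genes of leaf photosynthesis was named by the annotation, so the shoot part of the seedling was checked by these 3 genes only.

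All 4 measured root hair genes of 33 listed were higher on average in the tetraploids, and 1 passed, beside 0.563% of all probe sets that passed higher. The list was chosen with earlier results of these data known, so its count and median are a description only. XTH26, a xyloglucan endotransglucosylase/hydrolase of the root hair wall, stood at 4.77, 5.30, 5.68 and 5.77 in the diploids and at 8.61, 7.55, 7.33, 8.20 and 8.31 in the tetraploids. The groups were 1.56 apart, the widest gap of the single-gene probe sets described here. The rise was 2.62 ± 0.523, or 6.15-fold (limma, adjusted p = 0.0172), and the call ended without 2x 1 (adjusted p = 0.0872), without 4x 1 or without 4x 5. The root hair expansin EXPA18 gave 7.31, 6.13, 6.68 and 6.94 in the diploids and 8.38, 7.56, 7.30, 7.84 and 8.31 in the tetraploids. Only the lowest tetraploid, 4x 3, and the highest diploid, 2x 1, kept the groups from separating. Its difference of 1.11 ± 0.394 did not pass (adjusted p = 0.21), nor did that of the second root hair expansin, EXPA7, 0.85 ± 0.475 (adjusted p = 0.487). SCN1, which restricts hair initiation to 1 site per cell, gave 0.34 ± 0.112 (adjusted p = 0.173). The median of the 4 was 0.98, and 1.22 without 2x 1. The part of a different share of root or root hair cells in these differences was not tested, and PYK10 differed by 0.22.

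Among the wall genes as a whole 1 passed. Of 211 members listed or sharing a family symbol, 38 were measured. XTH26 was both the 1 that passed and the 1 whose groups did not overlap. Over all probe sets 0.563% passed higher and 7.24% were without overlap. The median was −0.0167. Of 9 xyloglucan enzymes 7 had a negative difference, among them XTH19 at 9.25, 9.45, 8.76 and 9.28 in the diploids and 8.80, 8.22, 7.91, 8.15 and 8.27 in the tetraploids. Only 4x 1 lay above the lowest diploid, 2x 3. The difference of XTH19 was −0.92 ± 0.287 and did not pass (limma, adjusted p = 0.148), though it did with array weights and with only the 2 groups in the fit. Of 18 expansins 9 had a positive and 9 a negative difference, with a median of 0.0119. After the root hair expansins, EXPB3 had the largest, 0.61 ± 0.201 (adjusted p = 0.174), with diploids at 6.40 to 7.20 and tetraploids at 6.89 to 7.58. The 7 measured cellulose synthase-like genes, whose products make wall polysaccharides other than cellulose, lay between −0.18 and 0.24. The endoglucanase family, added to the lists after the values were seen, had 15 measured members, none of which passed (0 higher and 0 lower). GH9C1 was the highest of them at 0.58 ± 0.396.

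Flavonoid genes are taken by step of the pathway. Of 58 listed loci 12 were measured, 1 passed (lower) and 2 did not overlap, both with the tetraploids below, where 0.396% of all probe sets passed lower and 3.93% lay apart below. The enzymes that attach sugars to flavonols were measured for 4 of 5, and all 4 differences were negative (that of UGT78D3 turned positive without 2x 4), with a median of −0.569. UGT78D2, which attaches glucose to flavonols and anthocyanins at position 3, stood at 9.26, 8.64, 8.99 and 9.03 in the diploids and at 8.37, 8.51, 8.28, 7.99 and 8.23 in the tetraploids. The groups were 0.134 apart, between 2x 2 and 4x 2. The fall was −0.71 ± 0.15 (limma, adjusted p = 0.0254), and leaving out 2x 1 (adjusted p = 0.125), 2x 3, 2x 4, 4x 4 or 4x 5 ended the call.

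The flavonol rhamnosyltransferase UGT78D1 gave a similar picture at a lower level, with 5.97, 5.55, 5.52 and 5.63 in the diploids and 5.01, 5.21, 4.92, 5.12 and 4.93 in the tetraploids. The groups were 0.312 apart, and the difference of −0.63 ± 0.151 missed the threshold (adjusted p = 0.0536). Over the 19 omissions its adjusted p ranged from 0.0123 to 0.201, and it passed without 3xm 2, 3xm 3 or 3xm 4. It also passed with array weights, with only the 2 groups in the fit and with dim probe sets left out. AT1G06000, listed as UGT89C1, which adds rhamnose at position 7, gave −0.51 ± 0.161 (adjusted p = 0.153) with an overlap through 4x 5, and passed with array weights and with the replicate number as a block. UGT78D3, an arabinosyltransferase, was dim and gave −0.05 ± 0.0881.

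For 3 of the 5 measured anthocyanin enzymes seedling 2x 1 stood far below the rest. DFR, which commits the pathway to anthocyanins, stood at 4.20, 7.64, 7.54 and 6.48 in the diploids and at 7.14, 7.85, 6.27, 6.46 and 6.78 in the tetraploids. Seedling 2x 1 was far below all others and the groups overlapped. The difference was 0.43 ± 0.649 with this seedling and −0.32 without it. The glycosyltransferases AT4G14090, listed as UGT75C1, and UGT79B1 had the same low value in 2x 1, 4.69 and 4.33, against at least 6.48 and 5.62 elsewhere. Their differences, 0.21 and 0.12, turned negative without 2x 1, and that of UGT79B1 also without 4x 2. Over the 5 measured anthocyanin enzymes the median moved from 0.211 to −0.346 without 2x 1, and over the 12 flavonoid genes from −0.132 to −0.406. CHIL, a helper protein of the first steps, gave −0.34 ± 0.222, and HYH, a light-response factor of the bZIP class, −0.29 ± 0.199, both with overlapping seedlings. HCT, a shared enzyme of the phenylpropanoid pathway, gave −0.09 ± 0.143, and 0.05 without 2x 1.

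Of the 8 measured auxin genes 2 passed, both lower and both glucosyltransferases, beside 0.396% of all probe sets that passed lower. IAGLU, which attaches glucose to indole-3-acetic acid, stood at 8.73, 8.69, 8.83 and 8.90 in the diploids and at 7.96, 8.13, 8.13, 7.98 and 8.06 in the tetraploids. Each group lay close together and the groups were 0.56 apart. IAGLU fell by 0.74 on the log2 scale (SE 0.119), a 1.67-fold lower level (limma, adjusted p = 0.00443). It passed in all 19 omissions, with an adjusted p of 0.00051 to 0.0188. UGT74D1, which also takes auxin as a substrate, gave 9.01, 8.85, 9.02 and 8.89 in the diploids and 8.34, 8.41, 8.47, 8.28 and 8.25 in the tetraploids, 0.382 apart. Its difference was −0.59 ± 0.123 (adjusted p = 0.0226), and the omission of 2x 1 (adjusted p = 0.0911) or of 2x 3, 2x 4, 4x 1, 4x 4 or 4x 5 left it without a call.

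The other 6 of the 8 measured auxin genes, out of 36 listed, did not pass, and the median over the 8 was −0.0353. AT1G14120, listed as DAO2 for a dioxygenase related to the auxin-oxidising enzyme, gave 5.25, 7.32, 6.33 and 6.75 in the diploids and 7.41, 7.32, 7.28, 7.23 and 7.58 in the tetraploids. The tetraploids lay together at the upper edge of the diploids, and the difference was 0.96 ± 0.365 (adjusted p = 0.255), or 0.57 without 2x 1. LBD16, a lateral root factor, gave 0.35 ± 0.114 (adjusted p = 0.156). Of the families 15 of 85 loci matched by symbol were measured and none passed (0 higher and 0 lower). GH3.3, which conjugates auxin to amino acids, gave −0.90 ± 0.368 (adjusted p = 0.288). The median of 7 Aux/IAA repressors was 0.212, with 5 of the 7 differences positive, and 5 of the 7 genes were dim. The 4 measured YUC genes of auxin synthesis lay between −0.19 and 0.08.

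Because the genes that passed in the flavonol and auxin groups were glycosyltransferases, the whole family was looked up after the values were seen. Of 61 members 50 were measured, and 3 passed, the UGT78D2, IAGLU and UGT74D1 genes above, all lower, beside 0.396% of all probe sets. The groups did not overlap for 10 members, 8 with the tetraploids below and 2 above, beside 3.93% and 3.31% of all probe sets, and 31 of the 50 differences were negative, with a median of −0.0853. As the family was looked up because members had passed, these counts are a description only. UGT72E1, which glucosylates lignin precursors, gave 9.37, 8.0, 8.35 and 8.38 in the diploids and 7.77, 7.65, 6.71, 7.44 and 7.50 in the tetraploids. The groups were 0.233 apart, with 2x 1 the highest and 4x 3 the lowest, and the difference was −1.11 ± 0.306 (limma, adjusted p = 0.0934, and −0.83 without 2x 1). UGT84A1, which makes glucose esters of hydroxycinnamates, gave −0.55 ± 0.17 (adjusted p = 0.142). On the other side UGT71C2 gave 0.34 ± 0.113 (adjusted p = 0.173), with a gap of only 0.00296, and UGT71B6, an abscisic acid glucosyltransferase, 0.29 ± 0.13 at a dim level. AT5G17040, the neighbour of UGT78D2 on chromosome 5, carries no symbol and was not counted in the family. It stood at 4.87 to 5.77 in the diploids and 4.46 to 4.86 in the tetraploids, and its difference of −0.71 ± 0.166 (adjusted p = 0.0475) lost its call in 14 of 19 omissions. No other adjacent genes passed together among the measured ones. How far probes of such related genes share targets was not tested.

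Low-energy genes were represented by 9 of 46 listed loci, of which 1 passed (higher) and 2 did not overlap, both with the tetraploids above, where 0.563% of all probe sets passed higher and 3.31% lay apart above. AT3G15450, listed as the dark-induced gene SEN5, stood at 5.57, 6.83, 5.78 and 7.85 in the diploids and at 9.10, 9.61, 8.34, 9.29 and 8.86 in the tetraploids. Seedling 2x 4 was the highest diploid and 4x 3 the lowest tetraploid, 0.483 apart. The rise was 2.53 ± 0.415, or 5.78-fold (limma, adjusted p = 0.00462), and it passed in all 19 omissions (highest adjusted p 0.0259, without 2x 1). In the triploids the gene stood at 8.28 ± 0.636 (SD, n = 5) in 3xm and 9.88 ± 0.517 (SD, n = 5) in 3xp, the latter above the tetraploid mean of 9.04.

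The 2 measured signalling genes did not pass. BZIP53, a bZIP factor that activates starvation genes, gave 9.06, 8.94, 8.95 and 8.89 in the diploids and 9.40, 9.31, 8.98, 9.32 and 9.36 in the tetraploids. Every tetraploid but 4x 3 stood above every diploid. Its difference was 0.32 ± 0.0933 (limma, adjusted p = 0.117), and the lowest adjusted p over the omissions, 0.0332, was that without 4x 3. It passed there and with array weights. AKINBETA1, a beta subunit of SnRK1, gave 0.45 ± 0.157 (adjusted p = 0.2). The 6 measured genes of amino acid breakdown had a median of −0.0785. They include both subunits of the leucine-degrading carboxylase, MCCA at −0.11 and MCCB at −0.13, and IVD at 0.03, all named after their values had been seen. AT5G38710, listed as PRODH2 for a proline dehydrogenase, was the exception at 0.24 ± 0.106, with 3.82 to 3.97 in the diploids and 4.01 to 4.34 in the tetraploids. APL3, a starch synthesis gene that sugar induces, gave 0.02. GI, the 1 measured clock gene, gave −0.36 ± 0.131 (adjusted p = 0.232).

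The ATG8 genes were all 9 measured, and 8 of 9 were positive in difference. Their median was 0.294, and 0.239 without 2x 1. None passed (0 higher and 0 lower), and 3 did not overlap between groups, all with the tetraploids above, beside 3.31% of all probe sets. This subset was set apart after the values were seen, so its counts are a description only. ATG8C stood at 7.66, 7.90, 7.94 and 7.79 in the diploids and at 8.07, 8.09, 8.28, 8.08 and 8.07 in the tetraploids, 0.121 apart. Its difference was 0.29 ± 0.0905 (limma, adjusted p = 0.138). APG8H (locus AT3G15580, distinct from ATG8H at AT3G06420) gave 0.32 ± 0.0942 and ATG8F 0.31 ± 0.115, with gaps of only 0.00164 and 0.0103. ATG8E had the largest difference, 0.72 ± 0.273 (adjusted p = 0.254), with diploids at 6.78, 7.84, 6.75 and 7.75 and tetraploids at 8.06, 8.08, 7.83, 7.95 and 8.08. The diploids of ATG8E fell into a low and a high pair, and the high pair reached the tetraploids. ATG8B was the member with a negative difference, −0.06, which turned positive without 4x 4. ATG3, which helps attach lipid to ATG8, gave 0.04 ± 0.0982.

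Beyond these functions, the 40 largest changes in each direction among single-gene probe sets that passed were followed seedling by seedling. With the list members and the unnamed probe sets below, 86 genes or probe sets that passed were followed, and 32 of them passed in every omission, 25 higher and 7 lower. The call of 53 ended without 2x 1. Many carry only a locus in the gene table used here, and no function is given for those. AT1G23710 stood at 4.59, 4.90, 5.26 and 4.81 in the diploids and at 6.20, 6.27, 6.13, 6.05 and 6.11 in the tetraploids. Its groups were 0.789 apart, with an SD of 0.087 among the tetraploids, and the rise was 1.26 ± 0.126 (limma, adjusted p = 4.33e-05). AT3G44450 stood at 8.23, 8.61, 8.46 and 8.61 in the diploids and at 7.44, 7.34, 6.86, 7.11 and 7.40 in the tetraploids. It fell by 1.25 on the log2 scale (SE 0.228, adjusted p = 0.0102) and passed in every omission.

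**Figure D5:**
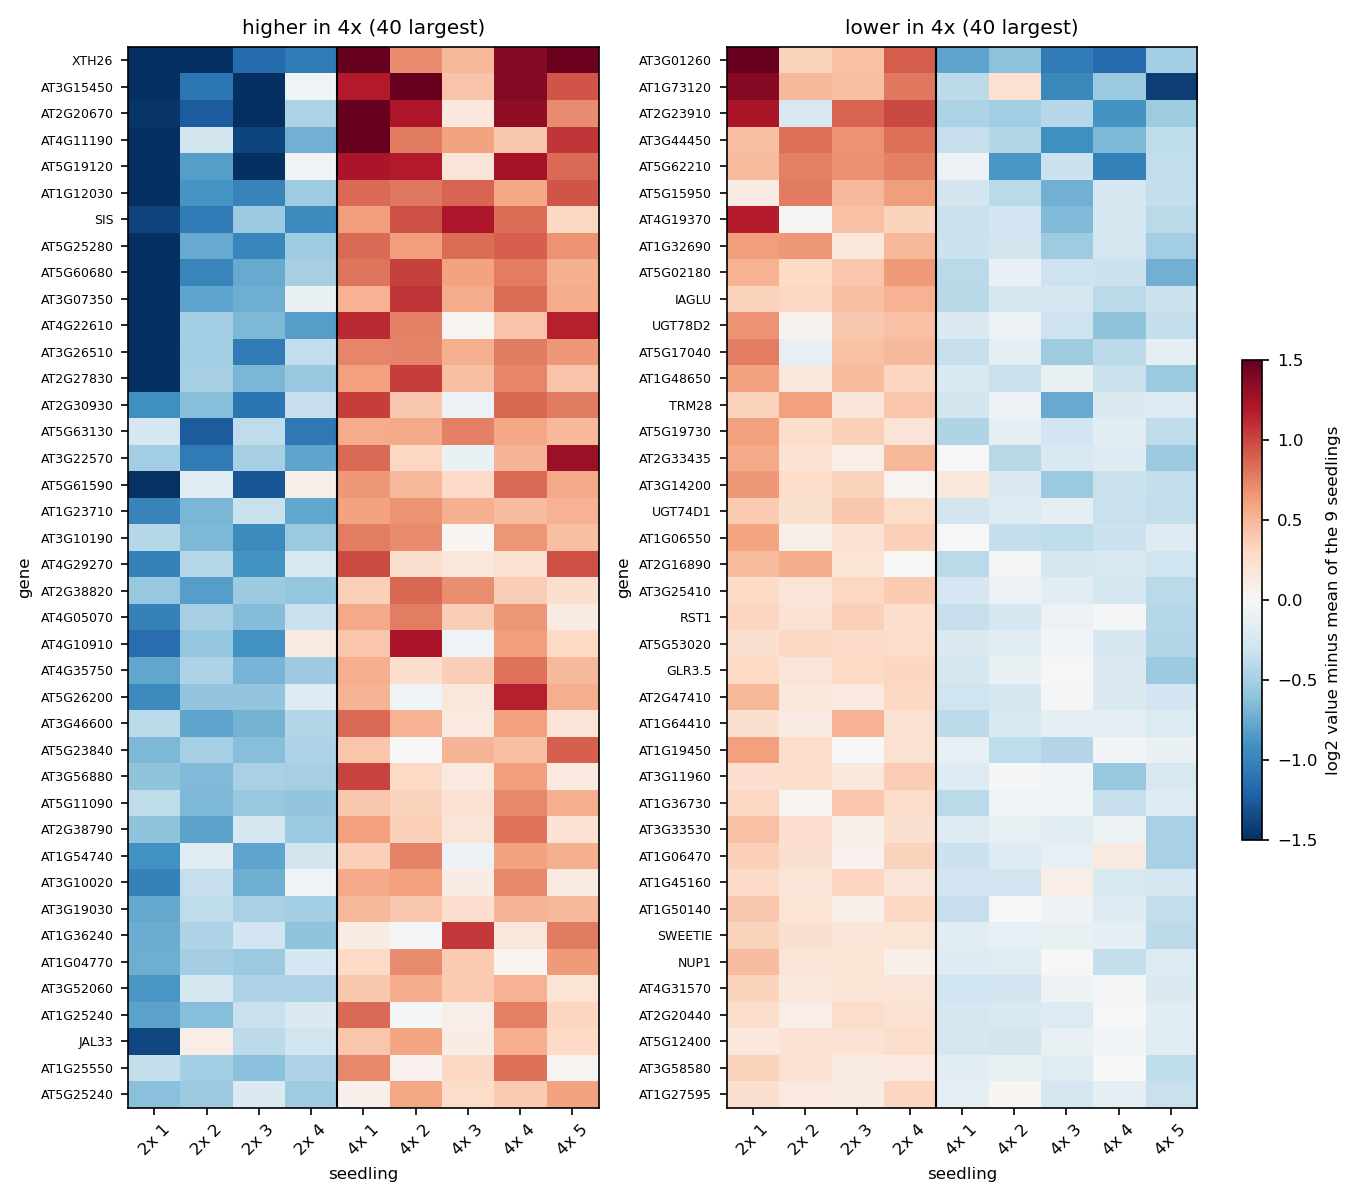
Log2 value of each of the 9 seedlings minus their mean, for the 40 single-gene probe sets with the largest differences that passed in each direction (red above the mean, blue below, colours limited at 1.5). Seedling 2x 1 has the deepest colours in many rows, and 4x 3 is the palest tetraploid in many rows on the left, as for AT3G15450 and AT2G20670.

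Named genes with known functions stood in both directions. AT5G61590, with the synonym DEWAX, a repressor of wax synthesis, gave 5.82, 7.14, 6.02 and 7.39 in the diploids and 7.95, 7.79, 7.59, 8.15 and 7.87 in the tetraploids. The diploids fell into a low and a high pair, all below the tetraploids, and the rise was 1.28 ± 0.262 (limma, adjusted p = 0.0209). Leaving out any 1 of 2x 1, 2x 3, 4x 1, 4x 4 and 4x 5 ended this call. RST1, which is needed for normal wax, went the other way, from 6.88 to 7.02 in the diploids to 6.23 to 6.64 in the tetraploids, with a fall of −0.52 ± 0.0966 (adjusted p = 0.0115) that lost its call without 2x 1 (adjusted p = 0.0505). JAL33, a jacalin-related lectin, was higher by 0.88 ± 0.209 (adjusted p = 0.0497), but the call ended in 15 of 19 omissions. The smaller falls include SWEETIE, required for normal sugar metabolism (−0.43 ± 0.0915), NUP1 of the nuclear pore (−0.42 ± 0.0956), GLR3.5 of the glutamate receptor-like channels (−0.51 ± 0.107) and TRM28, named for a motif that recruits the TON1 protein of the microtubule array (−0.69 ± 0.157). Each of these 4 lost its call without 2x 1, and in 6, 9, 6 and 9 of the 19 omissions respectively.

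Probe sets that the annotation does not list held the widest differences of all. 252367_at stood at 4.34, 5.13, 4.87 and 5.66 in the diploids and at 8.74, 7.69, 7.73, 8.91 and 8.04 in the tetraploids, a rise of 3.22 ± 0.335 (limma, adjusted p = 5.25e-05). 253502_at stood at 8.84, 7.46, 7.84 and 7.27 in the diploids and at 3.35, 5.88, 2.93, 3.30 and 3.47 in the tetraploids, a fall of −4.06 ± 0.772 (adjusted p = 0.0132). Seedling 4x 2 was high among the tetraploids of 253502_at, and without 2x 1 the call ended (adjusted p = 0.0703). 248048_at fell from 7.74 to 9.71 in the diploids to 4.45 to 5.71 in the tetraploids, by −3.54 ± 0.617 (adjusted p = 0.00718), and passed in every omission. 266353_at rose by 2.22 ± 0.43 (adjusted p = 0.0143), from diploids spread over 2.94 to 5.43 to tetraploids at 5.71 to 6.83, and without 2x 1 its call ended (adjusted p = 0.0789).

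The triploid means, given as a description, lay between those of both groups for IAGLU, UGT78D2, XTH26 and AT3G12900. IAGLU stood at 8.58 ± 0.279 (SD, n = 5) in 3xm and 8.15 ± 0.173 (SD, n = 5) in 3xp, between diploids at 8.79 and tetraploids at 8.05. UGT78D2 stood at 8.68 ± 0.318 in 3xm and 8.36 ± 0.14 in 3xp, and XTH26 at 5.55 ± 1.37 and 7.0 ± 0.675. PYE was lower in 3xm, at 7.40 ± 0.836, than in the other groups, with a wide spread. AT3G12900 stood at 4.84 ± 0.827 in 3xm and 4.47 ± 0.242 in 3xp, between 5.52 ± 1.29 (SD, n = 4) in diploids and 3.93 ± 0.167 (SD, n = 5) in tetraploids. No test between a triploid and another group was made here.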

How the data were processed

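The deposited log2 values of 19 arrays were used, made with RMA per the submitters' processing notes (version not given in the sources used here), which corrects background, normalises quantiles and summarises probes. Per the labels' protocols, RNA came from a Trizol lysis and column and was given a biotin label with a 3' IVT kit. Scanner files were not used here, columns of other samples numbered 0, and the number of arrays limits the precision. Symbols came from the platform annotation, updated through a TAIR10.1 gene table for 13436 probe sets, and where that table gives only a locus, the name printed is that of the list.

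limma 3.58.1 in R 4.3.3 was fitted over all 22746 non-control probe sets, with 1 coefficient for each of 4 groups and no block, and Benjamini-Hochberg adjustment. A gene with several probe sets entered a list by the brightest, and dim means among the lowest 30% by mean level (below 4.07). Named were the members of each list that passed or did not overlap and up to 6 further ones by p, the 40 largest changes in each direction and 2 unnamed probe sets in each. Members and lists were chosen with earlier results of these data known, and 3 families and some members beyond that rule were added after the values were seen. Those members were BHLH101, IMA1, ILR3, bHLH104, bHLH115, FAMA, SPCH, UGT75C1, UGT79B1 and UGT78D3. MCCA, MCCB, IVD, APL3, ATG8B, ATG3 and AT3G25790 were added in the same way. PRP39, a splicing factor caught by a wall pattern, was left out. Other patterns may also catch genes outside a family, since some symbols stand for more than 1 locus. HRS1 stands for AT1G13300 and AT3G46100, and ARF1 for AT1G23490 and AT1G59750, none of them measured. Alternatives were the 2 groups alone, eBayes with trend and robust, a filter on dim probe sets, a further quantile normalization, array weights, the replicate number as a block, 1 probe set per gene, a fold of 1.5 and leaving out each seedling. Deviations from the group means of seedlings with the same number in 2x and 4x correlated at −0.00391, −0.000887, 0.399 and 0.128. The main fit did not pair seedlings by number. Only for number 3, at 0.399, was the 4x seedling with the highest correlation that of the same number, and a shared effect of this number was not tested. Tested on simulated data of 22746 probe sets for 4x minus 2x, with 50 changed at each fold, the fit recovered 6% at 1.2-fold, 74% at 1.5-fold, 86% at 2-fold and 94% at 3-fold, with 5 false calls. How far these recovery rates and false calls hold for the measured seedlings was not tested. In the measured data 218 probe sets passed in the main fit and 77 without 2x 1. Array weights ran from 0.2837 for 3xm 4 to 2.713 for 2x 4. S8H, with a mean 3-fold lower level in the tetraploids, did not pass in the main fit. Promoter sequences were not analysed here. Plots used matplotlib 3.10.9 (Python 3.11.15).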

Additional observations from a re-analysis of the deposited data

Results flagged for a closer look

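Within the groups of 2x and 4x seedlings, 338 groups of values of named genes were searched for 1 seedling far from the others, by its gap to the nearest seedling as a share of the group's range. Chance flags about 1 in 20 such groups, and 14 were found, 6 of them with seedling 4x 3.

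In seedling 4x 3, BZIP53 was low at 8.98 against 9.31 to 9.40 in the other tetraploids (share 0.769), and UGT71C1 was low at 5.06 against 5.77 to 6.02 (0.741). ATG8C was high there at 8.28 against 8.07 to 8.09 (0.88), UGT76E11 at 7.23 against 6.61 to 6.77 (0.752), AT2G47410 at 6.89 against 6.62 to 6.70 (0.72) and AT1G45160 at 6.73 against 6.34 to 6.39 (0.885). In the other tetraploids, UGT79B1 was high in 4x 2 at 6.59 against 5.62 to 5.75 (0.861), 253502_at was high in 4x 2 at 5.88 against 2.93 to 3.47 (0.818), AT2G23910 was low in 4x 4 at 3.49 against 3.86 to 3.96 (0.791), and SWEETIE was low in 4x 5 at 6.44 against 6.66 to 6.72 (0.772).

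Among the diploids, bHLH34 was low in 2x 4 at 7.33 against 7.71 to 7.73 (0.944), bHLH121 was low in 2x 3 at 6.70 against 7.04 to 7.05 (0.978), AT2G38820 was low in 2x 2 at 7.29 against 7.53 to 7.57 (0.842), and PME61 was high in 2x 3 at 3.40 against 3.05 to 3.08 (0.911), a dim probe set.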

How the results depend on the processing

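The 218 probe sets that passed (128 higher and 90 lower in the tetraploids) became 99 (63 and 36) with 1 probe set per gene, 451 (260 and 191) with only the 2 groups in the fit and 1017 (466 and 551) with array weights, which turned the share of higher calls from 58.7% to 45.8%. A fold of at least 1.5 left 147 (109 and 38), 74.1% of them higher. Leaving out 1 seedling gave 77 to 382 (56 to 199 higher and 21 to 183 lower). Of the main calls, all 218 were also made with array weights, and 190 with only the 2 groups. The replicate number as a block gave 220 (127 and 93), of which 176 were shared with the fit without pairing. The labels give seedlings of both groups only a number in common. The 1647 probe sets without overlap became 822 of 13350 (410 and 412) with 1 probe set per gene, which has fewer probe sets, and 1959 to 2729 (890 to 1274 higher and 1051 to 1455 lower) without 1 seedling. Over 169 named genes and probe sets, 4546 differences were recomputed, of which 4046 kept direction and side of the threshold, 448 lost a call, 21 gained one and 31 changed sign. Calls were gained with array weights by S8H, UGT78D1, UGT89C1, LBD16, BZIP53, XTH19, EXPB3, PME61, ATG8C, UGT71C2 and UGT72E1, with only the 2 groups by UGT78D1 and XTH19, with the block by UGT89C1 and without dim probe sets by UGT78D1. No gene whose sign changed had passed, and the cause was not tested. With array weights ILR3 (0.01), bHLH104 (−0.02), HCT (0.03) and AT3G25790 (0.03) changed sign, and with the block APL3 (−0.07). Leaving out 1 seedling changed the sign of DFR (−0.32 to 0.83), HCT (−0.17 to 0.05), UGT75C1 (−0.49 to 0.56), UGT79B1 (−0.35 to 0.40), UGT78D3 (−0.12 to 0.03), ILR3 (−0.05 to 0.03), bHLH104 (−0.02 to 0.09), bHLH115 (−0.02 to 0.10), SPCH (−0.23 to 0.14), IVD (−0.03 to 0.07), APL3 (−0.19 to 0.31), ATG8B (−0.11 to 0.03) and AT3G25790 (−0.26 to 0.11). The lowest values of DFR, UGT75C1 and UGT79B1, and the highest of HCT and AT3G25790, were those without 2x 1.

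The precision is limited by 4 and 5 single seedlings, by the spread of the diploids, in which 2x 1 stood apart, and by that of the triploids. Without 3xm 4, 382 probe sets passed, and 451 with only the 2 groups, against 218 in the main fit and 77 without 2x 1. The annotation, which names 13513 of 22746 probe sets, is a further limit.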

Other observations

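A family of transcription repressors that nitrate induces, HRS1 and its homologs, was looked up after its members appeared among the largest changes. The homologs were entered by their loci, and the symbol HRS1, which stands for more than 1 locus, matched only loci that were not measured. Of the 8 loci 5 were measured, 3 passed (all higher) and 1 more did not overlap. Over all probe sets 0.563% passed higher, and 7.24% were free of overlap. As the family was picked for these changes, its count is a description only. AT1G68670 stood at 8.0, 7.95, 7.84 and 8.03 in the diploids and at 8.79, 8.51, 8.52, 8.91 and 8.58 in the tetraploids, 0.479 apart, with a rise of 0.71 ± 0.103 (limma, adjusted p = 0.00187). AT1G25550 stood at 8.57, 8.42, 8.31 and 8.47 in the diploids and at 9.65, 8.99, 9.24, 9.76 and 8.97 in the tetraploids, with a rise of 0.88 ± 0.15 (adjusted p = 0.00583). Both passed in every omission of 1 seedling. AT4G37180 rose by 0.47 ± 0.0922 (adjusted p = 0.0145), from 7.95 to 8.17 in the diploids to 8.49 to 8.64 in the tetraploids, and its call ended without 2x 2. AT1G49560 was below, with 5.73 to 6.22 in the diploids and 5.52 to 5.68 in the tetraploids, but its difference of −0.34 ± 0.172 did not pass (adjusted p = 0.429). AT3G25790 overlapped, with −0.06 ± 0.236. In the triploids AT1G68670 stood at 8.21 ± 0.0809 (SD, n = 5) in 3xm and 8.48 ± 0.205 (SD, n = 5) in 3xp, between the diploid mean of 7.96 and the tetraploid mean of 8.66.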
